A study of Arabidopsis thaliana with 12 samples.

Results

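CHLM and AT1G74470 encode enzymes of chlorophyll synthesis, and their transcript levels were described in the pam48 mutant of Arabidopsis thaliana and in the wild type (WT). Both genes were chosen by name. Each had 1 probe that the platform annotation assigns to a single gene, so they account for 2 of the 692 probes with 1 gene and of the 3439 probes on the array. The 6 pam48 samples came from a mutant in ecotype Columbia 0 that the labels describe as altered in photosynthesis with a defect in a protein that was not known, and the 6 WT samples came from the unmutated ecotype Columbia 0. The samples of each genotype are numbered 1 to 6. The labels name no tissue, plant age, growth condition, pooling of plants or mutated gene, so neither a tissue nor the transcript of the mutated gene could be checked.

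Chlorophyll is built in the plastid from glutamate through a chain of tetrapyrroles. After magnesium has been inserted into protoporphyrin IX, CHLM (AT4G25080, magnesium protoporphyrin IX methyltransferase) adds a methyl group to the ring, and the ester it makes is the substrate of the cyclase that follows. Geranylgeranyl reductase (AT1G74470) acts on the side chain: it reduces the geranylgeranyl chain to phytyl, the hydrophobic tail that anchors chlorophyll in its proteins, and it also supplies the phytyl chain of tocopherols and of phylloquinone. Both are single steps that green tissue needs to make chlorophyll.

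Intensities were deposited on a linear scale whose brightest spots stand near 100 in every sample. The median probe of a sample lay between 0.233 and 0.305 in pam48 and between 0.0913 and 0.192 in WT. Levels are therefore given as log2 of quantile normalised intensities, and also as the percentile of the probe among all 3439 in the same sample, which no rescaling of a whole sample can alter. Samples with consecutive numbers (1 with 2, 3 with 4, 5 with 6) lay nearest to each other in all 12 cases. They are called couples here.

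The CHLM probe lay low in pam48 samples 1 to 4 and at about the WT level in pam48 samples 5 and 6. Its percentile was 39.5 and 30.0 in pam48 samples 1 and 2, 38.1 and 46.6 in samples 3 and 4, and 73.2 and 64.6 in samples 5 and 6. In WT its percentile ran from 61.5 to 68.7 with a median of 65.7. The first 4 pam48 samples were thus below every WT sample, while pam48 sample 5 was above every WT sample and pam48 sample 6 was within the WT range. Of all probes, 22.4% had pam48 samples 1 to 4 all below or all above the 6 WT samples. On the log2 scale CHLM had a lowest, median and highest value of -3.28, -2.66 and -1.27 in pam48, against -1.87, -1.68 and -1.52 in WT. The SD over 6 samples was 0.763 in pam48 and 0.120 in WT, so CHLM was more even over the WT samples than over the mutant ones, a difference in spread that was not tested.

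The AT1G74470 probe, a bright one, was even in pam48 and spread out in WT after quantile normalisation. Its percentile had a lowest, median and highest value of 89.4, 91.1 and 92.2 in pam48, and of 91.0, 94.5 and 95.9 in WT. On the log2 scale the values were 0.11, 0.36 and 0.55 in pam48 and 0.35, 1.06 and 1.46 in WT, with SDs of 0.141 in pam48 and 0.495 in WT. After median centring the SDs were 0.282 in pam48 and 0.303 in WT, so the unequal spread depended on the scale. All 6 pam48 samples lay below the WT mean, and 4 of the 6 WT samples (1, 2, 5 and 6) lay above every pam48 sample. WT samples 3 and 4, at 0.48 and 0.35, lay within the pam48 range.

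**Figure D1:**
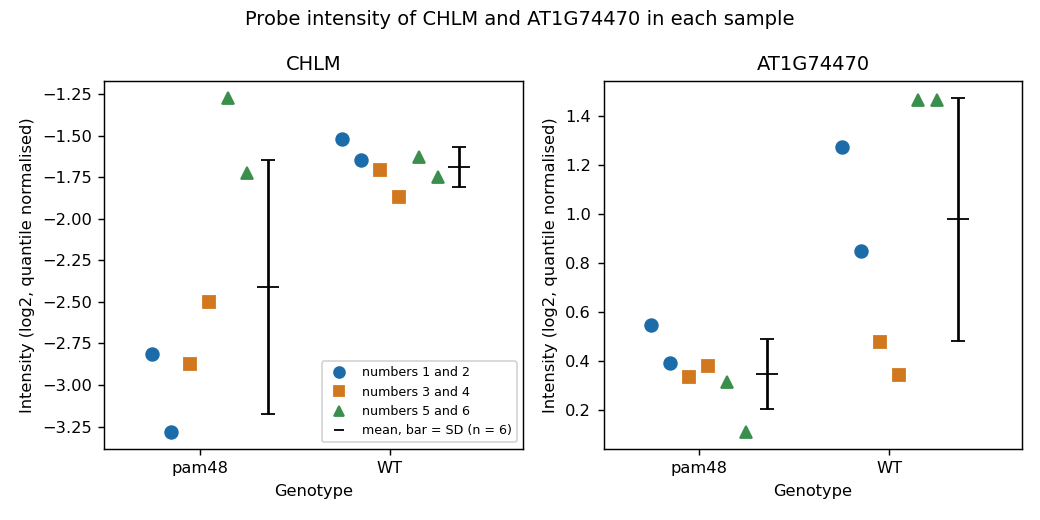
Quantile normalised log2 intensity (vertical axis) of the CHLM and AT1G74470 probes in each pam48 and WT sample, with symbols for the couples of consecutive numbers and the mean and SD over 6 samples beside them. CHLM is low in pam48 samples 1 to 4 and near the WT values in 5 and 6, whereas AT1G74470 is lower in pam48 than in WT samples 1, 2, 5 and 6 and overlaps with WT samples 3 and 4.

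Which transcripts differ between pam48 and WT is the question that the 2 groups answer. Neither gene passed the test over all 12 samples. CHLM averaged -2.41 ± 0.76 in pam48 and -1.69 ± 0.12 in WT (log2, SD, n = 6 each), a change of -0.73 ± 0.31 (SE) with a 95% interval from -1.40 to -0.05 (limma, unadjusted p = 0.037, adjusted p = 0.13). AT1G74470 averaged 0.35 ± 0.14 in pam48 and 0.98 ± 0.49 in WT, a change of -0.63 ± 0.24 with a 95% interval from -1.15 to -0.11 (limma, unadjusted p = 0.021, adjusted p = 0.092). Both members had an unadjusted p under 0.05, as did 1107 of the 3439 probes, and 0 of 2 passed after Benjamini-Hochberg adjustment over all probes in limma's test or in an exact permutation test per probe (adjusted p = 0.17 for CHLM and 0.091 for AT1G74470). Of all probes, 16.9% passed in limma. These p-values take every column as a separate sample. With consecutive numbers as a random block within each genotype, adjusted p in limma was 0.51 for CHLM and 0.43 for AT1G74470, and 0.233% of all probes passed.

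After quantile normalisation the genotype difference varied with the couple for both genes, and in unlike ways. After median centring that of AT1G74470 was alike in the couples, as given below. The values here are quantile normalised. For CHLM the change was -1.46 (log2, pam48 minus WT) in numbers 1 and 2, -0.90 in numbers 3 and 4, and 0.19 in numbers 5 and 6. For AT1G74470 it was -0.59, -0.05 and -1.25 in the same order. The couple with the widest difference in AT1G74470 was thus the one in which CHLM did not lie lower in the mutant. The median over all probes was -0.13, -0.23 and -0.02. The values within a couple differed by at most 0.473 for CHLM (pam48 samples 1 and 2) and by at most 0.422 for AT1G74470 (WT samples 1 and 2). These gaps are smaller than the genotype differences of CHLM in numbers 1 to 4 and of AT1G74470 in numbers 1 and 2 and in 5 and 6, and larger than the other two.

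The contrast between the couples was tested as the change in numbers 5 and 6 minus that in numbers 1 to 4. This division was chosen with earlier results known, in which the genotype difference over all probes was unlike in numbers 5 and 6, so its p-values are not independent support. For CHLM the change was 0.19 in numbers 5 and 6 and -1.18 in numbers 1 to 4, and the difference of 1.37 ± 0.34 (SE) had a 95% interval from 0.63 to 2.11 (limma, adjusted p = 0.024). For AT1G74470 the change was -1.25 in numbers 5 and 6 and -0.32 in numbers 1 to 4, and the difference of -0.93 ± 0.35 did not pass (limma, adjusted p = 0.081). So 1 of 2 members passed, where 20.9% of all probes did. With consecutive numbers as a random block neither passed (limma, adjusted p = 0.21 for CHLM and 0.30 for AT1G74470), and 0.494% of all probes did. The call for CHLM was also lost without WT sample 5, WT sample 6 or pam48 sample 5 (adjusted p = 0.082, 0.10 and 0.097 in limma). It was lost as well on the values as deposited, where the difference was 0.34 (limma, adjusted p = 0.56). The median of all probes for this difference was -1.12 as deposited and 0.17 after quantile normalisation.

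Within numbers 1 to 4 alone CHLM was lower in pam48, at -2.87 ± 0.32 against -1.69 ± 0.15 in WT (log2, SD, n = 4 each). That is 2.27-fold lower, with a 95% interval from 1.64-fold to 3.13-fold (limma, adjusted p = 0.0031). In that comparison 44.4% of all probes passed, so the call does not set CHLM apart. The interval counts closely alike columns as separate samples. With consecutive numbers as a random block, added after the data were seen, CHLM passed with an interval from -1.91 to -0.45 on the log2 scale (limma, adjusted p = 0.035), as did 19.7% of all probes. AT1G74470 gave -0.32 ± 0.23 (SE) within numbers 1 to 4 and did not pass without that block or with it (limma, adjusted p = 0.28 and 0.48). Without numbers 3 and 4 CHLM gave -0.64 and AT1G74470 -0.92 (limma, adjusted p = 0.53 and 0.16), where 0.32% of all probes passed. Without numbers 1 and 2 CHLM gave -0.36 and AT1G74470 -0.65 (limma, adjusted p = 0.62 and 0.31), where 0.291% passed. Without pam48 sample 5 alone, CHLM passed at -0.95 (limma, adjusted p = 0.025), as did 19.7% of all probes.

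**Figure D2:**
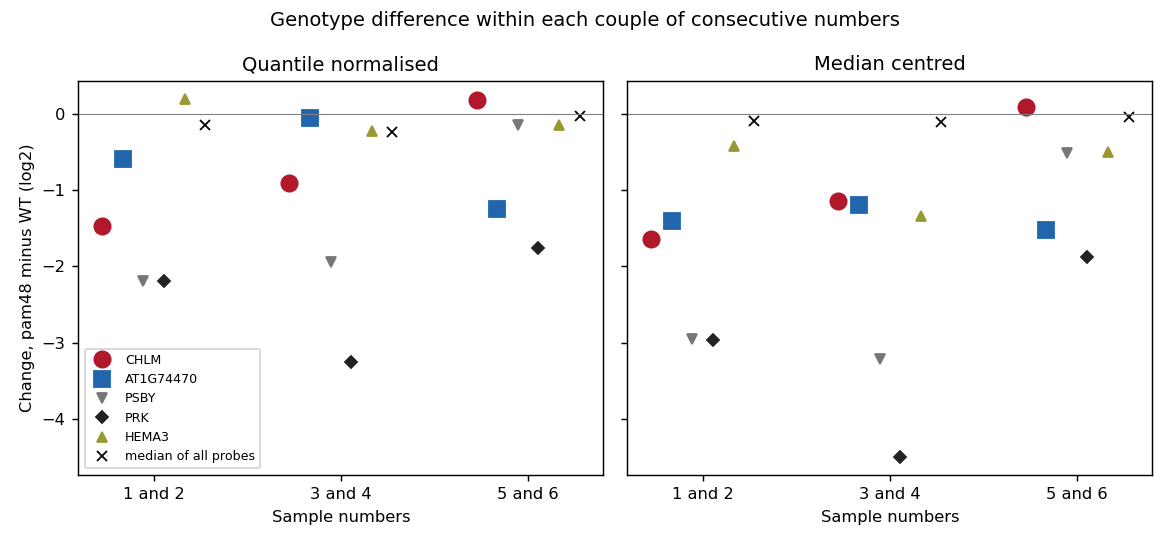
Change in log2 intensity, pam48 minus WT (vertical axis), within each couple of consecutive numbers, after quantile normalisation (left) and after median centring (right), for CHLM, AT1G74470, 3 other genes and the median of all probes. CHLM is at 0.19 in numbers 5 and 6 after quantile normalisation, and AT1G74470 is lower in all 3 couples after median centring, at -1.41, -1.19 and -1.53.

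The size of the change in AT1G74470 depended on how samples were brought to a common level. When the median of each sample was used, AT1G74470 ran from -0.26 to 0.47 in pam48 with a median of 0.08, and from 1.20 to 2.01 in WT with a median of 1.32. The genotypes did not overlap on that scale, which held for 9.77% of all probes. The change in AT1G74470 was -1.37 (limma, adjusted p = 0.0020, with 15.7% of all probes called). It was alike in the couples: -1.41, -1.19 and -1.53 in order of number. On the same scale CHLM changed by -1.64, -1.14 and 0.09 in the couples, and by -0.90 over all samples (limma, adjusted p = 0.062). On the values as deposited the change was -0.27 for AT1G74470 (limma, adjusted p = 0.41) and 0.21 for CHLM (adjusted p = 0.60), where the median of all probes was 1.06.

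What a gene is set against on each scale depended on its brightness. In the brightest 25% of probes, which holds AT1G74470, the median change was 0.42 as deposited, -0.07 after quantile normalisation and -0.68 after median centring. In the 25% next below them, which holds CHLM, it was 1.02, 0.04 and -0.09. Relative to the median of its own brightness class each gene was lower in pam48 on every one of these scales. AT1G74470 was lower by 0.56 after quantile normalisation and by 0.69 on the other scales, which differ by a constant per sample. CHLM was lower by 0.76 and 0.81 in the same way (log2, with no test).

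Weighting samples by their evenness (limma's array weights) gave -1.14 for CHLM (adjusted p = 0.0033) and -0.55 for AT1G74470 (adjusted p = 0.046), with 36.3% of all probes called. The weights were lowest in pam48 samples 5 and 6, at 0.337 and 0.343, and highest in pam48 samples 1 and 2, at 2.44 and 2.38. With both genotypes of a couple as 1 random block, a fit added after the data were seen, both genes passed (limma, adjusted p = 0.046 for CHLM and 0.031 for AT1G74470), as did 30.7% of all probes. That fit still counts the closely alike columns of a genotype within a couple as separate samples. When these were averaged and the couples taken as a block, neither gene passed (limma, adjusted p = 0.37 for CHLM and 0.40 for AT1G74470).

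**Figure D3:**
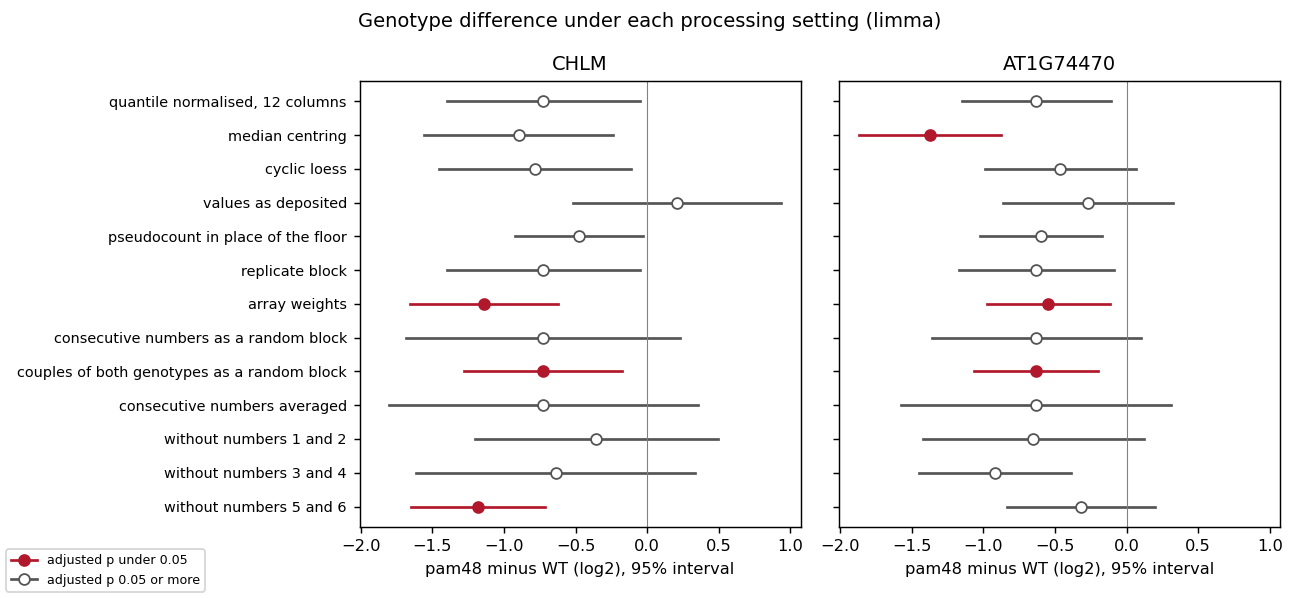
Change in log2 intensity, pam48 minus WT (horizontal axis), with its 95% interval in limma, for CHLM (left) and AT1G74470 (right) under 13 settings (rows), filled where the adjusted p is under 0.05. For CHLM every setting but the values as deposited gives a value below 0, and for AT1G74470 all 13 do.

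The ratio of both probes within a sample was used to ask whether one gene changed more than the other. Log2 of CHLM over AT1G74470, on the deposited intensities, was -3.30 and -3.67 in pam48 samples 1 and 2, -2.93 and -2.63 in samples 3 and 4, and -1.31 and -1.55 in samples 5 and 6. In WT it ran from -3.38 to -2.80, so that pam48 samples 4, 5 and 6 stood above all WT samples and pam48 sample 2 below them. After quantile normalisation 2 pam48 samples stood above all WT samples and 3 below them. The mean was -2.57 ± 0.95 in pam48 and -3.04 ± 0.21 in WT (SD, n = 6 each). The difference of 0.47 did not pass an exact two-sided permutation test of the genotype labels (p = 0.31, adjusted p = 0.39 over 13 ratios). After quantile normalisation the difference was -0.095 (exact permutation test, adjusted p = 0.88). Within the couples the ratio changed by -0.24, 0.05 and 1.62 in order of number.

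**Figure D4:**
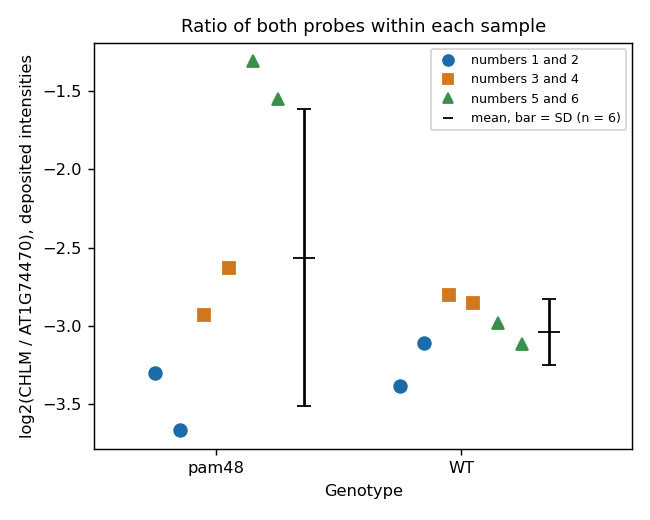
Log2 of the deposited CHLM intensity over the deposited AT1G74470 intensity (vertical axis) in each pam48 and WT sample, with symbols for the couples and the mean and SD over 6 samples. Samples 5 and 6 of pam48, at -1.31 and -1.55, lie above all 6 WT samples, which run from -3.38 to -2.80.

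The other 12 ratios set each member against 6 genes of photosynthesis that had a probe with 1 gene: PRK and SBPASE of the Calvin cycle, the light-harvesting gene LHB1B2, and the photosystem subunit genes PSAN, PSBW and PSBY. Of the 13 ratios, 5 passed on the deposited intensities and 4 after quantile normalisation, and the 3 that passed on both scales were these. CHLM over PRK, the phosphoribulokinase gene, was higher in pam48 by 2.21 as deposited and by 1.67 after normalisation (exact permutation test, p = 0.0022 on both scales, adjusted p = 0.0070 and 0.0094). AT1G74470 over PRK was higher by 1.74 and 1.77 (exact permutation test, same p and adjusted p). For both ratios all 6 pam48 samples lay above the highest WT sample on the deposited scale, and 0.0022 is the smallest p that 6 against 6 allows. PRK by itself changed by -2.40 (limma, adjusted p = 0.00022), a call shared by 16.9% of all probes. Its values did not overlap between the genotypes, also after median centring, where that held for 9.77% of all probes. Earlier results of the 6 genes were known when they were chosen. What share of all probes would pass over PRK was not computed, so these calls do not set either member apart. CHLM over PSBY, which encodes a small photosystem II protein, was higher by 1.33 and 0.70 (exact permutation test, adjusted p = 0.0070 and 0.049). For CHLM over PSBY after normalisation, 5 pam48 samples lay above all WT samples and 1 lay below them. On average over these samples, neither chlorophyll gene was as much lower in pam48 as PRK, and CHLM was not as much lower as PSBY.

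The remaining ratios that passed did so on 1 scale. CHLM over LHB1B2 gave a difference of 1.15 as deposited (exact permutation test, adjusted p = 0.028) and of -0.03 after normalisation (adjusted p = 0.91). AT1G74470 over SBPASE was lower in pam48, with a difference of -1.64 as deposited (exact permutation test, adjusted p = 0.0070) and of -0.93 after normalisation (adjusted p = 0.077). AT1G74470 over PSBW, a photosystem II subunit gene, gave a difference of -0.38 as deposited (adjusted p = 0.39) and of -1.02 after normalisation (exact permutation test, adjusted p = 0.0094). When couples are averaged, 3 against 3, an exact test cannot go below p = 0.10, so none of these ratios could pass.

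Little else of the pathway could be read. Of 46 loci listed for the synthesis and breakdown of tetrapyrroles, 3 had a probe with 1 gene: CHLM, AT1G74470 and HEMA3 (AT2G31250), which encodes a glutamyl-tRNA reductase, the enzyme of the first committed step. The list did not hold SIRB, a gene of the siroheme branch that is described with the probes most like CHLM. SIRB passed over all 12 samples, with a change of -0.74 (limma, adjusted p = 0.046), a call shared by 16.9% of all probes. It was picked by its likeness to CHLM, so this call is not independent of CHLM. Of 15 further loci listed for the supply and use of geranylgeranyl groups, AT1G74470 not among them, 0 had one. None of the 3 passed in limma over all 12 samples in either direction, where 16.9% of all probes did. HEMA3 had a lowest, median and highest log2 value of -0.15, 0.49 and 0.68 in pam48 and of 0.19, 0.29 and 0.84 in WT. The genotypes overlapped, and the change was -0.06 ± 0.23 (SE; limma, adjusted p = 0.89), with 0.20, -0.23 and -0.14 in the couples. With median centring HEMA3 was lower in pam48 by a change of -0.74 (limma, adjusted p = 0.037), where 15.7% of all probes were called. The genotypes did not overlap on that scale, which held for 9.77% of all probes. HEMA3 is in the brightest 25% of probes, whose median change on that scale was -0.68. The family has close relatives of HEMA3, and the values cannot separate related transcripts that bind to 1 spot.

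The probes most like each gene were taken by Pearson's r over the 12 samples. They came from the 416 other probes with 1 gene that lay above the floor in every sample. The floor is the 5th percentile of a sample's positive intensities, a cutoff set in the processing. The 12 samples include closely alike couples, so r is a description. The genotype difference is part of the pattern, so changes like those of the member follow from the choice and are given here with no test. For CHLM they were PSBY (r = 0.93), AT1G01080 (r = 0.90) and SIRB (r = 0.89), the last of which encodes the ferrochelatase of siroheme, a side branch of tetrapyrrole synthesis. Spearman's rho was 0.68, 0.80 and 0.56 in that order. SIRB averaged -2.79 ± 0.44 in pam48 and -2.05 ± 0.12 in WT (log2, SD, n = 6 each). Its change was -0.16 in numbers 5 and 6 and -1.03 in numbers 1 to 4. The corresponding changes were -0.14 and -2.07 for PSBY and -0.12 and -1.28 for AT1G01080.

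For AT1G74470 the nearest were AT5G33390 (r = 0.80), AT2G25640 (r = 0.76) and AT5G36470 (r = 0.73), with Spearman's rho of 0.61, 0.83 and 0.83. In numbers 5 and 6 they changed by -1.55, -0.88 and -0.71, and in numbers 1 to 4 by -0.12, 0.03 and -0.28. The value of r between CHLM and AT1G74470 themselves was 0.36 over the 12 samples after quantile normalisation and 0.01 on the log2 of the deposited intensities. The signs of CHLM's changes in the couples (lower, lower, higher in pam48) were shared by 18.7% of all probes, and those of AT1G74470 (lower in all 3) by 27.0%.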

How the data were processed

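Total RNA of 12 samples was measured on arrays, 6 from pam48 and 6 from WT, grouped by sample title. The deposited table holds 1 spot intensity per probe and sample, linear from 0 to 100. The labels do not say how the authors labelled, background-corrected or scaled. The number of arrays limits the precision, and the labels do not say whether numbered samples are separate plants, so p-values reflect the spread among these columns alone, possibly a technical one.

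Intensities were quantile normalised, values below each sample's 5th percentile of positive intensities were raised to it (the floor; 8.96% to 15.6% of probes per sample, neither member in any sample), and log2 was taken. The test was limma's (version 3.58.1, R version 4.3.3; lmFit and eBayes, two-sided) over all 3439 probes, with Benjamini-Hochberg adjustment and a threshold of 0.05. The scripts were tested on simulated data whose columns were drawn independently, so closely alike couples were not covered. Single ratios had an exact permutation test over samples. Deviations from the genotype mean correlated between pam48 and WT samples of the same number in each of 6 pairs (r over probes 0.188 to 0.418). Because samples of a couple are closely alike, these values cannot show whether single numbers pair the samples. The main tests did not pair them. The replicate block, which pairs them by number, is an alternative.

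Probe names came from the platform annotation, updated through Entrez Gene identifiers to TAIR10.1. Of 3439 probes, 692 had 1 gene, 870 several (not named) and 1877 were not listed. Named genes are the 2 members, listed pathway loci with a probe of 1 gene, 6 photosynthesis genes, and the 3 probes most like each member. The members and lists were chosen with earlier results of these data known. Alternatives covered normalisation, floor, filter, blocks, weights, variance prior, test and samples left out.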

Additional observations from a re-analysis of the deposited data

Results flagged for a closer look

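The genotype difference in CHLM was unlike between sample numbers, a division chosen with earlier results known. The change (log2, pam48 minus WT) in numbers 5 and 6 was higher by 1.37 than that in numbers 1 to 4, and the interaction term of limma passed (adjusted p = 0.024), as did 20.9% of all probes. With consecutive numbers as a random block it did not (limma, adjusted p = 0.21; 0.494% of all probes passed). The median deposited intensity of a sample was 0.239 to 0.245 in pam48 and 0.191 to 0.192 in WT for numbers 5 and 6. It was 0.233 to 0.237 in pam48 and 0.0996 to 0.0999 in WT for numbers 1 and 2, and 0.305 in pam48 and 0.0913 to 0.0918 in WT for numbers 3 and 4. The overall brightness of the samples thus moved with this result, and its part in the result was not tested. Among 30 groups of 6 samples examined for a single sample far from the other 5, none had one, but where consecutive samples deviate together, as pam48 samples 5 and 6 do for CHLM, such a search cannot find them.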

How the results depend on the processing

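Changes are pam48 minus WT on the log2 scale, with adjusted p in limma. CHLM was not called over all 12 samples, and it reversed to 0.21 on the values as deposited (0.60). It passed with array weights (-1.14), with both genotypes of a couple as a random block (-0.73) and without pam48 sample 5 (-0.95). It also passed without numbers 5 and 6 (-1.18), with or without consecutive numbers as a random block. In these fits 36.3%, 30.7%, 19.7%, 19.7% and 44.4% of all probes passed, in that order. Without numbers 1 and 2 CHLM gave -0.36 (0.62). Leaving out 1 sample gave -0.95 to -0.55. AT1G74470 was below 0 under all 31 alternatives, and leaving out 1 sample gave -0.76 to -0.53. It passed with median centring (-1.37), array weights (-0.55) and both genotypes of a couple as a random block (-0.63). In these fits 15.7%, 36.3% and 30.7% of all probes passed, in that order.

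With the replicate block, which pairs the samples by number, CHLM gave adjusted p = 0.11 and AT1G74470 0.089, or 0.37 and 0.40 when couples were averaged first. The replicate block changed no call of either member, with the contrast of numbers 5 and 6 included (CHLM 1.37, adjusted p = 0.048; AT1G74470 -0.93, 0.079), nor that of their ratio (0.47, exact sign-flip test, p = 0.34). HEMA3 changed sign on the values as deposited (0.36), with cyclic loess (0.081) and without numbers 3 and 4 (0.030), and ranged from -0.12 to 0.051 with 1 sample left out.

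The contrast of numbers 5 and 6 with 1 to 4 in CHLM was not called on the values as deposited (0.34) or with a random block for consecutive numbers (1.37, 0.21), and ranged from 1.14 to 1.60 with 1 sample left out. That of AT1G74470 passed on the values as deposited (-1.37, adjusted p = 0.018), against the same median of -1.12 over all probes. It also passed without WT sample 1 (-1.11, 0.026). The share of all probes called in those fits is not given here. The contrast of AT1G74470 was -0.23 with median centring (0.71), and ranged from -1.11 to -0.80 with 1 sample left out. CHLM over AT1G74470 reversed to -0.095 after quantile normalisation and ranged from 0.22 to 0.69 with 1 sample left out. Why these values shift with the setting was not tested.

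The 580 probes called became 1739 as deposited, 1248 with array weights, 1527 without numbers 5 and 6, 1057 with both genotypes of a couple as a random block, 305 with cyclic loess, 377 with a common floor and 369 of 3151 with dim probes filtered out. They became 10 without numbers 1 and 2 and 11 without numbers 3 and 4. With consecutive numbers as a random block they became 8, where 386 had an unadjusted p under 0.05 in limma. The replicate block on averages gave 3, and averages alone gave 0. Leaving out 1 sample gave 158 to 678, with at most 223 without any 1 of the 8 samples numbered 1 to 4.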
